A study of Mus musculus with 12 samples.

Results

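The genes described here are 10 effectors of Wnt signalling in oligodendrocyte progenitor cells (OPCs), the dividing glia that give rise to myelin-forming oligodendrocytes. They were chosen by name as Tcf7l2, Tcf7l1, Lef1, Ctnnb1, Apc, Axin2, Daam2, Rnf43, Apcdd1 and Wif1, and every peak that the authors assigned to one of these symbols was taken. That rule gave 255 of the 269580 peaks in the 6 deposited lists of H4K8ac, acetylation of lysine 8 on histone H4, a mark found at active promoters and enhancers. Of the 10 genes, 9 had a peak in at least 1 list and Wif1 had none; 23433 genes had a peak in all.

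In the canonical Wnt pathway a secreted ligand binds a receptor pair at the cell surface, which holds back the cytoplasmic destruction complex that otherwise marks β-catenin for degradation. The spared β-catenin enters the nucleus and acts with transcription factors of the TCF and LEF family, and one of its targets, Axin2, feeds back as a part of the destruction complex. In the oligodendrocyte lineage the pathway is known for its part in the timing of differentiation, where Tcf7l2 is a marker of newly forming oligodendrocytes.

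Cells were sorted from the forebrain of PdgfrαH2BEGFP mice, in which a nuclear green fluorescent histone follows Pdgfra, a receptor gene expressed by OPCs. Both ages carried this allele, and no other genotype or treatment was named. The neonatal group was taken at postnatal day 5 and the adult group at postnatal day 60, with 3 H4K8ac libraries, named as biological replicates, at each age; 6 input libraries were not analysed here. The labels give no sorting gate, no sex and no number of animals behind a library.

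The libraries differed in strength across the ages. The neonatal lists held 9097, 31189 and 7353 peaks for replicates 1, 2 and 3, and the adult lists held 72278 to 77002, covering 2.33 to 13.7 Mb and 41.9 to 60.9 Mb of the genome. The files give no read totals, so the depth behind each list is unknown. Of 8 OPC markers, Pdgfra, Cspg4, Olig1, Olig2 and Sox10 had a promoter peak in all 6 lists, Ptprz1 in 3 neonatal and 2 adult lists, Lhfpl3 in 2 and 1, and Nkx2-2 in 2 and 3. Myelin genes moved with age: 1 to 3 of 8 myelin markers had a promoter peak in the neonatal lists and 8 of 8 in each adult list, and the length covered over the 8 genes was 0.435 to 7.22 kb at the first age and 102 to 131 kb at the second. Of 8 microglial markers only Cx3cr1 had a promoter peak, in the 3 adult lists, with a summed cover of 0 kb in the neonatal and 3.73 to 4.10 kb in the adult lists, and the defining genes P2ry12, Tmem119, Csf1r and Aif1 had no promoter peak. Of 8 endothelial and pericyte markers 6 had no promoter peak in any list, among them Cldn5, Cdh5, Flt1 and Tek. Pecam1 had one in 0 neonatal and 3 adult lists, and Pdgfrb in 1 neonatal and 0 adult lists. The summed cover was 0 to 2.30 kb against 3.69 to 4.66 kb. Over 8 OPC markers the summed cover was 4.29 to 33.8 kb in the neonatal and 64.0 to 92.8 kb in the adult lists, and over 6 markers of committed precursors 0.381 to 8.20 kb and 31.2 to 44.5 kb. Over 8 neuronal markers it was 0 to 3.02 kb and 7.12 to 11.3 kb, and over 8 astrocyte markers 0.450 to 9.03 kb and 14.8 to 25.1 kb. A promoter peak was present at 0, 5 and 1 of the neuronal markers in neonatal replicates 1, 2 and 3. In adult replicates 1, 2 and 3 it was present at 5, 3 and 3 of them. For the astrocyte markers the numbers were 3, 6 and 2 against 5, 3 and 6. The part of library strength or of myelin gene acetylation in the results on Wnt genes was not tested.

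The promoter sequences of 5 members are shown because they hold the clearest contrasts: Axin2 and Tcf7l2 had promoter peaks at both ages, Daam2 and Rnf43 in adult cells only, and Wif1 at neither age. Each run is the 250 bases before a promoter start listed for the gene by RefSeq in GRCm38.p6, the most upstream where several are listed. For Axin2, Tcf7l2 and Daam2 that start lies inside the gene's RefSeq span, which begins at 108917828, 55741797 and 49564459. Runs are read 5′ to 3′ on the gene's own strand, and capitals mark CG dinucleotides, the sites of DNA methylation that are dense in CpG islands. The windows are chr11:108920099-108920348 on the plus strand for Axin2, chr19:55741560-55741809 on the plus strand for Tcf7l2, chr17:49564338-49564587 on the minus strand for Daam2, chr11:87662837-87663086 on the plus strand for Rnf43 and chr10:121033754-121034003 on the plus strand for Wif1.
Axin2: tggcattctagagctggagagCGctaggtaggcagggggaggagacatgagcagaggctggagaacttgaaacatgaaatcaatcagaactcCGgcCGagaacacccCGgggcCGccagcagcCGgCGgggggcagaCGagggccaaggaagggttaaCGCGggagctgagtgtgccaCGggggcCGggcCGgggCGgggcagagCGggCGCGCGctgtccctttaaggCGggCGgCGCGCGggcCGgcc
Tcf7l2: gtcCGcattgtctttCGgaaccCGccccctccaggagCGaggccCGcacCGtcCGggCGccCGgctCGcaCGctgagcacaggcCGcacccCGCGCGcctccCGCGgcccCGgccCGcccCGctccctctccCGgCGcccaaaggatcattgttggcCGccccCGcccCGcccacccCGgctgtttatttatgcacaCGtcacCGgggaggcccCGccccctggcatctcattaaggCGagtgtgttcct
Daam2: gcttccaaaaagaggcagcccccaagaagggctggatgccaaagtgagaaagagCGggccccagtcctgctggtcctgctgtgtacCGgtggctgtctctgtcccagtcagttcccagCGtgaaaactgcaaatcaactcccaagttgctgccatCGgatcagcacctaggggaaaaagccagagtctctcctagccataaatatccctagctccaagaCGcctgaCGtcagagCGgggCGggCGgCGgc
Rnf43: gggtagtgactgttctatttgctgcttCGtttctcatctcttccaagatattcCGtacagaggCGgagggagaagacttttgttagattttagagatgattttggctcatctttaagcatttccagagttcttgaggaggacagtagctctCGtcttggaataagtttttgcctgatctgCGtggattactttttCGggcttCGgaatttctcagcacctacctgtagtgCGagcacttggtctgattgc
Wif1: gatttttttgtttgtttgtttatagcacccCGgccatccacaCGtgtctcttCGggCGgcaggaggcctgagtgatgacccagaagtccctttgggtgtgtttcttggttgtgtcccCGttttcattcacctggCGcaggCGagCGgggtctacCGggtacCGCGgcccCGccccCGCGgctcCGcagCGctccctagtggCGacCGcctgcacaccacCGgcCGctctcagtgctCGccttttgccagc

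The number of CG dinucleotides in these windows did not follow the peaks across all members. The Axin2, Tcf7l2 and Ctnnb1 windows, at genes with a promoter peak in all 6 lists, held 24, 30 and 35 CG dinucleotides, and the median over 3101 genes with the same pattern was 20 (quartiles 13 and 28). The Daam2 and Rnf43 windows held 10 and 8, and the median over 1058 genes with a promoter peak in 3 adult and 0 neonatal lists was 8 (quartiles 3 and 15). Tcf7l1, with a promoter peak in 2 neonatal and 3 adult lists, had 29. Wif1, with no peak, had 21, while the median over 14967 genes with no promoter peak was 3 (quartiles 1 and 5). Lef1, with a promoter peak in 1 list of each age, had 11. The median over 12058 genes with a promoter peak in any list was 15 (quartiles 8 and 22). Peaks covered all 250 bases of the Daam2 and the Rnf43 window in each adult list and none in any neonatal list. In the Axin2 window they covered 250, 143 and 250 bases in the adult lists and none in the neonatal lists, where the nearest Axin2 peaks after the start began 0.116, 0.092 and 0.143 kb past it. The Tcf7l2 window held 0, 147 and 76 covered bases in the neonatal and 136, 147 and 250 in the adult lists, and the Tcf7l1 window 0, 250 and 65 against 250 in each adult list. The core TCF and LEF motif CTTTGAT, searched on both strands, was in none of the windows of the 8 members found in the RefSeq promoter table, and 3.72% of 27025 genes had it in such a window; no other motif was searched.

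Tcf7l2, Tcf7l1 and Lef1 encode DNA-binding partners of β-catenin, and they did not share a pattern. The quantity followed is the covered length, the summed length in kb of all peaks assigned to a gene in one list. For Tcf7l2 it was 1.12, 5.39 and 0.540 kb in neonatal replicates 1, 2 and 3 and 9.25, 9.46 and 10.7 kb in the adult replicates. The lowest adult library lay above the highest neonatal one, and neonatal replicate 2, the longest neonatal list, stood above the other 2. The mean rose from 2.35 ± 2.65 to 9.81 ± 0.786 kb (SD, n = 3 each), a log2 change of 2.26 (SE 0.63, adjusted p = 0.0134, limma). The call was lost without any 1 of the adult replicates, with adjusted p = 0.0624, 0.0620 and 0.0833 in limma without replicates 1, 2 and 3. In both equal-strength comparisons below its sign turned, without a call (adjusted p = 0.196 and 0.114, limma).

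**Figure D1:**
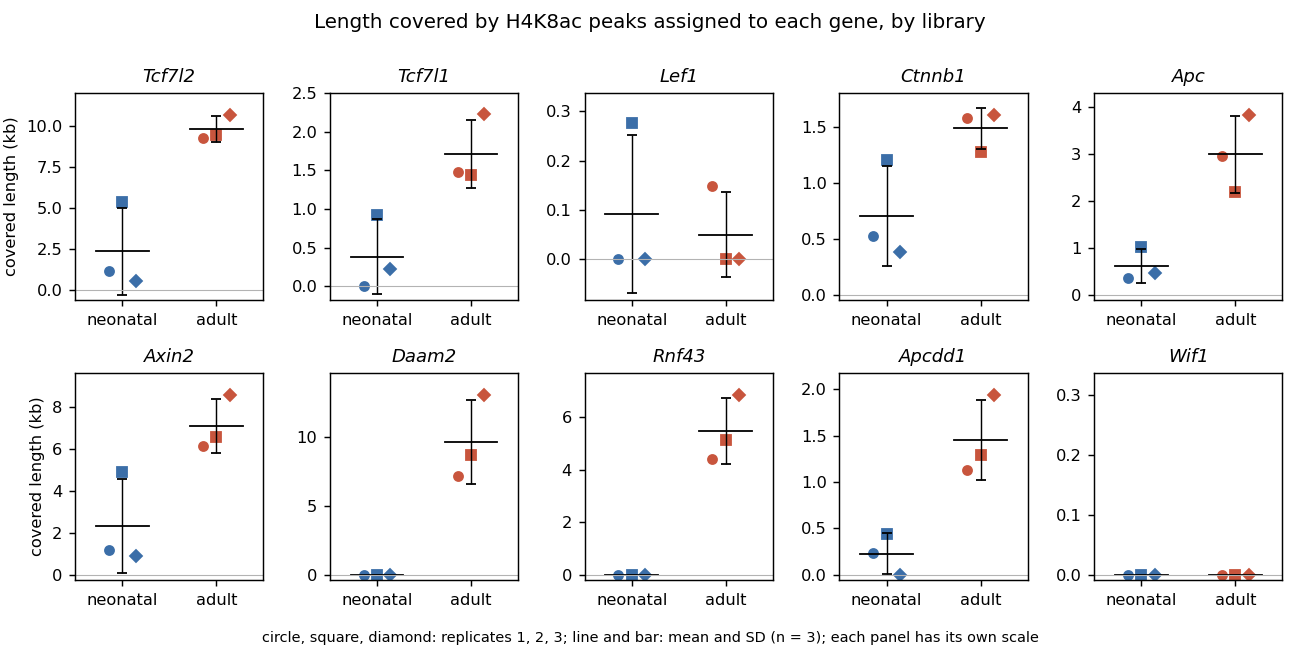
Covered length in kb of the peaks assigned to each of the 10 genes; points are libraries, lines and bars are the mean and SD of 3 libraries, and the vertical scale differs between panels. Daam2 and Rnf43 lie at 0 in all neonatal libraries and above 4 kb in all adult ones, Lef1 stays under 0.3 kb and Wif1 at 0.

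Most of the Tcf7l2 cover in adult cells lay at the promoter and in an intronic block. The promoter, at chr19:55742293-55744445 just inside the gene, was marked in all 6 lists, with the authors' fold enrichment of 5.20, 7.85 and 4.95 in the neonatal lists and 11.6, 7.73 and 9.94 in the adult lists. The intronic block lay about 45 to 48 kb into the gene. Its first region, chr19:55786164-55788138, had a peak in 3 adult lists and no neonatal list, covering 0.948, 1.20 and 1.98 kb. Its second, chr19:55788458-55791056, was covered over 1.85, 2.12 and 2.27 kb in the adult lists and over 0.145 kb in neonatal replicate 2. A smaller intronic cluster 14.8 to 16.2 kb into the gene had peaks in neonatal replicate 2 and in each adult list, over 3 regions. Distal peaks were few and did not favour the adult lists alone: they covered 0.153, 1.16 and 0 kb in the neonatal and 0.180, 0.303 and 0.333 kb in the adult lists. A distal region at -98.3 kb from the start had a peak in 3 adult lists, and 4 of the 5 distal regions beyond the end of the gene had a peak in a single neonatal list and in no adult list. Other peaks were not in Tcf7l2 itself: of the intronic peaks assigned to it, 0, 4 and 0 in the neonatal and 4, 5 and 7 in the adult lists lay in introns of its upstream neighbour Vti1a. In all 6 lists together, 30 peaks inside the Tcf7l2 body were assigned to Ppnr, whose start is nearer. Counting every peak over the gene body and 3000 bp before it gave 0.967, 4.14 and 0.540 kb against 11.6, 11.1 and 14.0 kb for Tcf7l2, so the order of the ages did not rest on the assignment.

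Tcf7l1, known mainly as a repressor of Wnt targets, had 1 main region, its promoter at chr6:72788026-72789588. Its covered length was 0, 0.927 and 0.220 kb in the neonatal and 1.48, 1.45 and 2.23 kb in the adult replicates, again without overlap. The log2 change was 1.45 (SE 0.40, adjusted p = 0.0127, limma), with adjusted p = 0.0506 without adult replicate 1 and 0.0818 without adult replicate 3. The body of Tcf7l1 held 49 more peaks, assigned to Gm15401, Gm15402, Gm37736 and Gm38320, and by position its cover was 0.255, 3.59 and 0.220 kb against 8.02, 6.86 and 10.7 kb.

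Few peaks were assigned to Lef1 at either age. It had 1 promoter peak of 0.276 kb in neonatal replicate 2 and 1 of 0.149 kb in adult replicate 1, and no assigned peak in the other 4 lists. The log2 change was -0.09 (SE 0.23, adjusted p = 0.749, limma). By position, with peaks of Gm42449 and Lef1os1 in the gene body counted, the cover was 0, 0.463 and 0 kb in the neonatal and 0.830, 0.539 and 0.157 kb in the adult lists (log2 0.64, adjusted p = 0.112, limma), so each adult list had a peak within the gene. In adult replicates 2 and 3 that peak, assigned to Gm42449, was the nearest to the Lef1 start, 75.7 and 75.3 kb into the gene. The authors' deposited table holds 2 sites in the Lef1 body, assigned to Gm42449, with log2 values of 3.24 and 3.69. In neonatal replicates 1 and 3 the nearest peak lay 192 and 454 kb away.

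Ctnnb1, which encodes β-catenin itself, was marked at its promoter in every library. The covered length was 0.522, 1.21 and 0.381 kb in the neonatal and 1.58, 1.28 and 1.60 kb in the adult lists, which did not overlap. The log2 change of 0.78 (SE 0.33) did not pass the test (adjusted p = 0.0590, limma); without neonatal replicate 2 it was 1.06 (adjusted p = 0.00188, limma). Its shared region, chr9:120933479-120934508, had fold enrichments of 5.29, 14.2 and 4.31 in the neonatal lists and 27.0, 17.8 and 23.8 in the adult lists, and no intronic or distal peak was assigned to the gene at either age.

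Apc and Axin2 are scaffolds of the destruction complex. Apc covered 0.350, 1.02 and 0.466 kb in the neonatal and 2.94, 2.19 and 3.82 kb in the adult lists. Its log2 change was 1.67 (SE 0.35, adjusted p = 0.00361, limma). One promoter region was marked in all 6 lists, and a second start 26.9 kb further into the gene was marked in neonatal replicate 2 and in 3 adult lists, where it covered 1.29, 1.09 and 1.31 kb.

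Axin2 carried a promoter peak within the first 336 of every list. By the authors' q-value its promoter region, chr11:108919913-108922476, ranked 177, 196 and 309 in the neonatal lists and 11, 336 and 41 in the adult lists, with fold enrichments of 8.15, 12.7 and 6.74 and of 40.8, 17.0 and 23.7. The covered length of all Axin2 peaks was 1.20, 4.89 and 0.883 kb in the neonatal and 6.13, 6.58 and 8.56 kb in the adult lists, a log2 change of 1.69 (SE 0.56, adjusted p = 0.0250, limma). That call was lost in 5 of the 6 fits that leave out 1 library, with adjusted p = 0.0777 and 0.0782 in limma without neonatal replicates 1 and 3 and 0.0794, 0.0848 and 0.117 without adult replicates 1, 2 and 3. Outside the promoter, neonatal replicates 1, 2 and 3 had 0, 7 and 1 distal Axin2 peaks, and the adult lists had 6, 7 and 7. Distal regions at -29.2, -19.3, 38.2 and 53.2 kb from the start had a peak in neonatal replicate 2 and in 3 adult lists. Those at -28.3 and 53.9 kb had a peak in neonatal replicate 2 alone. Regions at -26.2, -25.6, -18.7 and 39.0 kb had a peak in adult lists alone. Intronic regions about 9.3 and 10.7 kb into the gene had a peak in 3 adult lists and in no neonatal list.

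Daam2, a formin that relays Wnt signals at the receptor complex and is known in the oligodendrocyte lineage, had no neonatal peak of any class. Its covered length was 0 kb in each of the 3 neonatal lists and 7.22, 8.70 and 13.1 kb in the adult lists. The fitted log2 change of 4.30 (SE 0.33) is on the scale of covered bases plus 500, so it depends on that offset and gives no fold against 0. Daam2 met the requirement of a peak in at least 2 lists through the adult lists alone, so its call in the fit is not used as support. In each adult list 2 promoter peaks and 4 distal peaks were present, with 8, 8 and 15 intronic peaks. The promoter region chr17:49561872-49564934 had fold enrichments of 14.8, 15.0 and 12.5 and covered 2.45, 2.86 and 3.06 kb. A distal region at -23.7 kb from the start, chr17:49585878-49590206, had fold enrichments of 9.76, 9.93 and 14.6 and covered 2.77, 3.20 and 4.12 kb. Peaks assigned to a neighbouring gene continued beyond it in the adult lists. Counting all peaks over the gene body left the 3 neonatal lists at 0 kb.

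**Figure D2:**
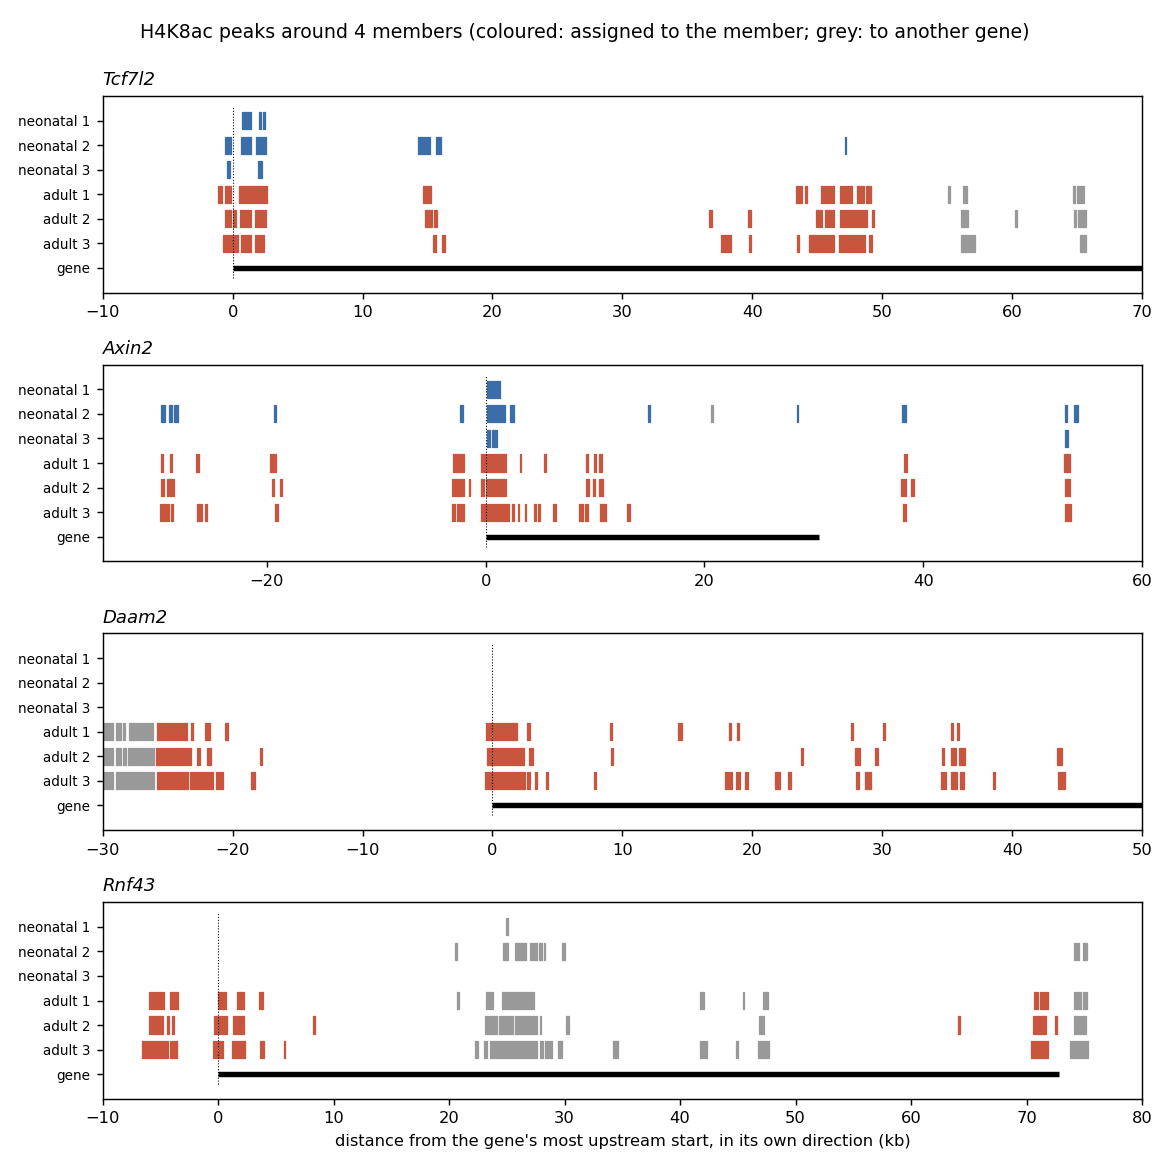
Peaks in each library around Tcf7l2, Axin2, Daam2 and Rnf43, against the distance in kb from the most upstream start in the direction of the gene; the black bar is the gene, blue and red peaks were assigned to it in neonatal and adult libraries, and grey peaks to another gene. The Axin2 promoter is marked in every row, the Daam2 panel is empty in all 3 neonatal rows, and the neonatal peaks inside Rnf43 are grey.

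Rnf43, Apcdd1 and Wif1 restrain the pathway outside the nucleus. RNF43 is a ubiquitin ligase that removes Frizzled receptors from the membrane, and its gene had no assigned neonatal peak. The covered length was 0 kb in the 3 neonatal lists and 4.41, 5.13 and 6.84 kb in the adult lists, and the fitted log2 change was 3.55 with the 500 bp offset (SE 0.29). By assigned peaks Rnf43 too entered the fit through the adult lists alone, and its call there is not used as support. In all, 5 regions had a peak in 3 adult and 0 neonatal lists: 2 at the main promoter, 1 at a start 71.1 kb into the gene and 2 that the authors classed as 3′ UTR, which lie before Rnf43 within RefSeq's span of its neighbour Hsf5. Absence in neonatal cells holds for the assigned peaks only. Inside the Rnf43 body 1 peak of neonatal replicate 1 and 7 of neonatal replicate 2 were assigned to Gm25968, and by position the cover was 0.169, 2.89 and 0 kb against 7.08, 8.56 and 11.9 kb (adjusted p = 0.00227, limma).

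Apcdd1, a membrane glycoprotein that binds Wnt ligands and receptors, covered 0.235, 0.440 and 0 kb in the neonatal and 1.13, 1.29 and 1.94 kb in the adult lists. The log2 change was 1.45 (SE 0.32, adjusted p = 0.00477, limma). All its peaks were of the promoter class, and a region 9.34 kb into the gene had a peak in 3 adult lists and in no neonatal list.

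Wif1, which encodes a secreted protein that binds Wnt ligands, had no peak in any library, assigned or by position. The nearest peak of any gene lay between 54.0 and 54.4 kb from its start in all 6 lists. The files hold peaks and no signal below the calling threshold, so acetylation at Wif1 was not detected at the depth of these libraries.

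Over all members, 7 of the 9 genes in the fit rose with age and 0 fell as the lists were called, whereas 2 rose and 2 fell when the lists were scaled to equal totals. Of all 20206 genes in the first fit 67.3% were called higher and 0.317% lower, so the share among the members was near the background. Of the 7, Daam2 and Rnf43 entered the fit through the adult lists alone, so neither the count nor the median is used as support. The median log2 change was 1.67 over the 9 members and 1.11 over all genes tested. In 8 of the 9 members with a peak the libraries of the ages did not overlap, with the adult ones above, against 60.0% of all genes with a peak. An exact two-sided permutation test of 3 against 3 libraries cannot go below 0.1, the value that each of those 8 genes reached.

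The members had more peaks of each class per adult list, but their share of all peaks in a list overlapped between the ages. It was 0.0989%, 0.106% and 0.109% in neonatal replicates 1, 2 and 3 and 0.0816%, 0.0936% and 0.101% in the adult replicates. The members had 9.67 ± 3.79 promoter peaks per neonatal list and 25.7 ± 1.53 per adult list (SD, n = 3 each). A promoter peak lies within 3000 bp of a transcript start. Intronic peaks numbered 0, 9 and 0 in neonatal replicates 1, 2 and 3 and 22, 25 and 38 in the adult replicates, so the neonatal intronic signal came from replicate 2 alone, with 7 peaks assigned to Tcf7l2 and 2 to Axin2. Intronic peaks made up 0%, 27.3% and 0% of the members' neonatal peaks and 37.3%, 36.8% and 48.7% of their adult peaks. Over all peaks the intronic shares were 6.67%, 15.5% and 4.64% against 33.5%, 33.9% and 36.1%. Distal peaks numbered 1, 10 and 1 against 11, 13 and 12. Promoter peaks made up 88.9%, 42.4% and 87.5% of the members' neonatal peaks and 40.7%, 39.7% and 33.3% of their adult peaks; over all peaks the shares were 85.2%, 67.5% and 88.8% against 43.9%, 43.1% and 40.4%. The distal share of the members' peaks overlapped between the ages (18.0% ± 10.7 and 17.7% ± 2.03, SD, n = 3 each), and over all peaks it was 6.63%, 14.3% and 5.37% against 18.1%, 18.6% and 18.5%. With equal numbers of strongest peaks the adult minus neonatal difference turned from 16 to -1 for promoter peaks and went from 25.3 and 8 to 0 for intronic and distal peaks. Without neonatal replicate 2 no neonatal library had an intronic member peak.

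**Figure D3:**
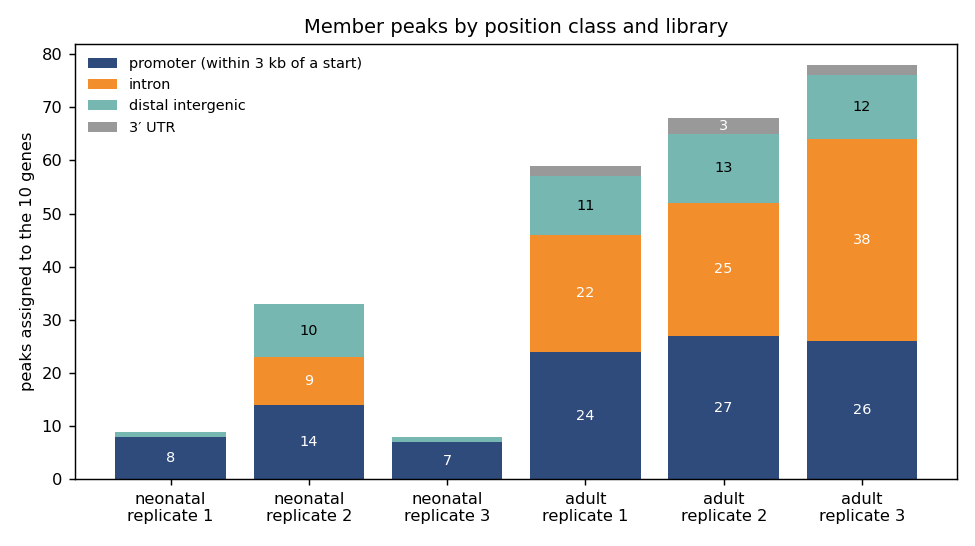
Number of peaks assigned to the 10 genes in each library, stacked by the authors' position class. Neonatal replicates 1 and 3 hold 8 and 7 promoter peaks and 1 other peak each, and the adult libraries hold 24 to 27 promoter peaks and 22 to 38 intronic ones.

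By promoter peaks the members fell into 4 sets. Tcf7l2, Ctnnb1, Apc and Axin2 had one in all 6 lists, as did 3996 of the 18548 genes with a promoter peak. Tcf7l1 and Apcdd1 had one in 2 neonatal and 3 adult lists. Daam2 and Rnf43 had one in 3 adult and 0 neonatal lists, a pattern of 12.1% of the 18548 genes with a promoter peak. Lef1 had one in 1 list of each age and Wif1 in none. In all, 4 members had a promoter peak in more adult than neonatal lists, and 66.5% of all genes with a promoter peak did. Joined across lists, the members' peaks made 109 regions, of which 15 (13.8%) had a peak in 3 adult and 0 neonatal lists, against 20.4% of 98027 regions over all genes. No member region had a peak in 3 neonatal and 0 adult lists, a pattern of 39 (0.04%) of the 98027 regions over all genes.

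Because the adult lists are several times longer, the covered length was also compared at equal list strength in 2 ways. When only the 7353 strongest peaks of each library were kept, 1 member was called higher, Daam2 (log2 2.96, SE 0.31), against 25.1% of the genes tested in that fit. Its cover was 0 kb in each neonatal list and 2.45, 2.86 and 5.44 kb in the adult lists. Daam2 thus entered this fit as well through the adult lists alone, and its call is not used as support. Rnf43 and Lef1 had no peak among the strongest at either age, and Tcf7l2 covered 0.808, 2.00 and 0.540 kb in the neonatal and 0.430, 0 and 0.818 kb in the adult lists (log2 -0.83, adjusted p = 0.196, limma). Axin2 covered 1.20, 1.71 and 0.883 kb against 2.24, 1.78 and 2.51 kb, without overlap between ages and without a call (adjusted p = 0.108, limma).

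The second way divided each library's covered length by its total. Relative to all acetylated sequence Daam2 (log2 3.55, SE 0.24) and Rnf43 (log2 2.84, SE 0.24) were called higher in adult cells, as were 24.2% of all genes, and both entered this fit too through the adult lists alone. Axin2 (log2 -1.28, SE 0.17, adjusted p = 0.00476, limma) and Ctnnb1 (log2 -1.67, SE 0.32, adjusted p = 0.0113, limma) were lower, and 12.4% of all genes were. Scaling moved the median of all genes from 1.11 to 0.29 and that of the 9 members from 1.67 to -0.27. Daam2 and Rnf43 had no neonatal cover as called, so neither treatment could give them any, and this pattern is not used as support. Among the strongest peaks Daam2 kept cover in the 3 adult lists and Rnf43 kept none. For Tcf7l2, Tcf7l1, Apc, Apcdd1, Axin2 and Ctnnb1 the direction or the call depended on how library strength was treated.

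**Figure D4:**
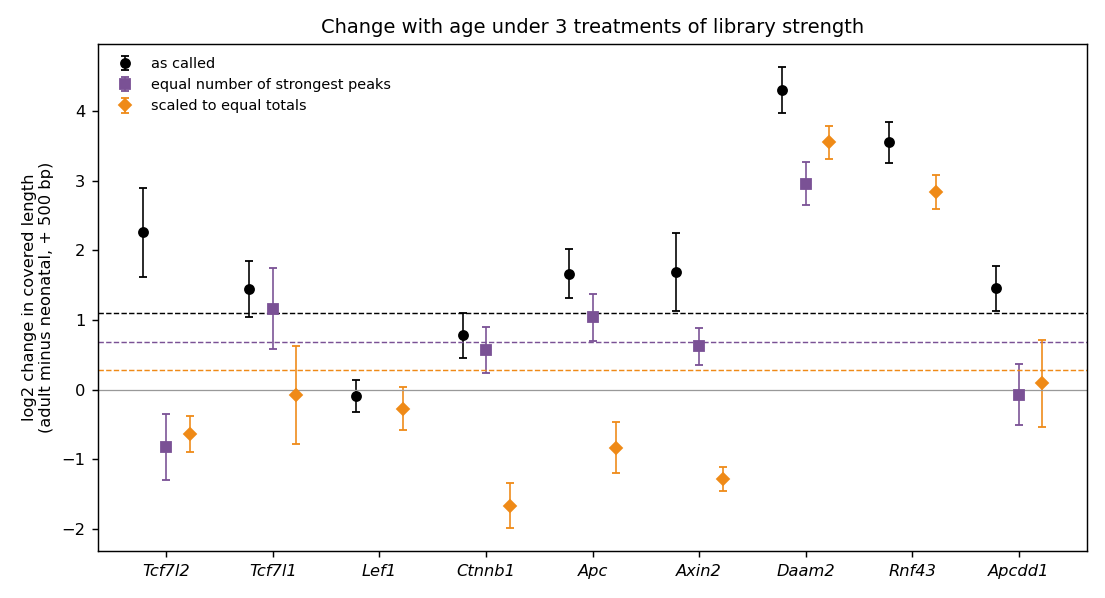
Log2 change in covered length with its standard error for 9 members, as called, with the 7353 strongest peaks of each library, and scaled to equal totals; dashed lines are the medians over all genes of the same fit. Daam2, with no neonatal cover in any of the fits, lies above every dashed line under each treatment. Axin2 and Ctnnb1 lie above 0 as called and below 0 when scaled.

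A comparison of the ages by the authors themselves lists sites that differ, and a positive log2 fold change in it was read as higher in adult cells because such sites overlap the adult peaks. The authors' deposited table held 30 sites in peaks assigned to the members, and all 30 were positive, as were 43634 of the 43888 sites listed. Their median log2 fold change was 2.09, and that of all sites in the authors' deposited table was 2.41. The 7 members other than Tcf7l2, Lef1 and Wif1 had a promoter site higher in adult cells in the authors' deposited table, against 64.5% of all genes with a promoter peak. No site at the Tcf7l2 promoter is in the authors' deposited table, which lists sites with an adjusted p under 0.05 and so does not show that the ages were alike there.

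Daam2, Rnf43 and Tcf7l2 held the sites with the 3 largest differences outside promoters. The distal Daam2 site, chr17:49589308-49589707, had the highest value of any member in the authors' deposited table, 6.06 (adjusted p = 8.27e-11), where 98.1% of the listed sites were below it. In the authors' deposited table the Daam2 promoter had 4.10 (adjusted p = 1.79e-15). The Tcf7l2 intronic site at chr19:55787490-55787889 had 4.05 there (adjusted p = 5.46e-08 in the authors' deposited table), and the 2 sites in Vti1a introns had 1.58 and 2.04. Promoters marked at both ages had lower values in the authors' deposited table, 1.53 at the main Axin2 start, 1.35 at Ctnnb1 and 1.38 at Apc. Rnf43 sites ran from 1.83 to 4.68 in the authors' deposited table, and the second Apcdd1 site had 4.75.

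**Figure D5:**
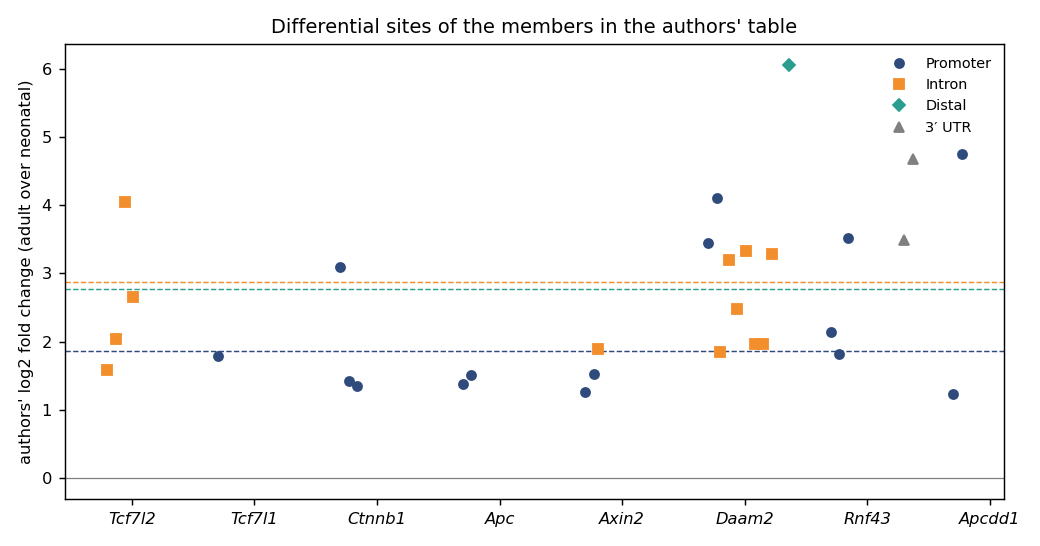
Log2 values from the authors' deposited table for each differential site assigned to a member, by position class; dashed lines are the medians of all listed promoter, intronic and distal sites. All 30 sites lie above 0, and the distal Daam2 site stands highest at 6.06.

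The rest of the pathway was described with 63 further Wnt genes in 6 lists, of which 61 had a peak; Rspo2 and Dkk1 had none. As called, 30 of the 56 genes in the fit were higher in adult cells and 0 lower, with a median log2 change of 0.99, whereas scaled to equal totals 4 were higher and 19 lower. By role, 2 of 7 tested ligands and agonists, 6 of 14 receptors, 9 of 11 cytoplasmic relay and destruction complex genes, 5 of 9 extracellular and membrane inhibitors, 7 of 10 nuclear cofactors and 1 of 5 target genes were called higher as called from the lists, against 67.3% of all genes. The scaled counts stood against 24.2% higher and 12.4% lower of all genes. By role they were 1 higher and 2 lower for ligands and agonists, 1 and 5 for receptors, 1 and 5 for relay and destruction complex genes, 0 and 1 for inhibitors, 0 and 5 for nuclear cofactors and 1 and 1 for target genes.

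As called from the lists, Daam1, the paralog of Daam2, had the largest change. It covered 0, 0.963 and 0 kb in the neonatal and 27.7, 33.7 and 52.6 kb in the adult lists (log2 5.70, SE 0.56, adjusted p = 7.72e-05, limma). Nkd1, a feedback inhibitor and target, covered 0.200, 1.34 and 0 kb against 15.4, 15.6 and 21.0 kb (log2 4.35, adjusted p = 0.000203, limma). Bcl9l, a β-catenin cofactor, rose by 3.37 (adjusted p = 0.00109, limma) and the secreted inhibitor Sfrp1 by 2.97 (adjusted p = 0.00198, limma). Scaled to equal totals, 0 nuclear cofactors and 0 inhibitors were called higher, so neither Bcl9l nor Sfrp1 kept its call. Among receptors and ligands the largest log2 changes were 2.35 for Fzd5 (adjusted p = 0.000183, limma) and 2.41 for Wnt7b (adjusted p = 0.0168, limma). The smallest called changes in each list were those of Wnt3 (1.36), Fzd1 (0.86), Csnk1a1 (0.95), Notum (1.03) and Ctnnbip1 (0.76). Wnt3 covered 0 kb in each neonatal list and 1.06, 0.512 and 0.838 kb in the adult lists. It entered the fit through the adult lists alone, its change depends on the 500 bp offset, and its call is not used as support.

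Sfrp2 and Wnt7a went the other way in the authors' deposited table. The Sfrp2 promoter site had -2.10 on the log2 scale and a distal Wnt7a site -1.68 (adjusted p = 0.000751 and 0.00523 in the authors' deposited table). Sfrp2, which encodes a secreted Wnt-binding protein, covered 0, 1.39 and 0.452 kb in the neonatal lists and 0 kb in each adult list, and the change did not pass the test over covered length (adjusted p = 0.0688, limma). Wnt7a, a ligand made in the developing brain, covered 0.537, 2.54 and 0 kb against 0.163, 0 and 0.233 kb (adjusted p = 0.171, limma).

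The genes whose covered lengths were most like those of Tcf7l2 over the 6 libraries were Tln2, Svil and Spg7, at Euclidean distances of 0.288, 0.456 and 0.518 in log2 units. Tln2 covered 1.08, 5.69 and 0.419 kb in the neonatal and 9.66, 8.35 and 11.6 kb in the adult lists, with the same high value in neonatal replicate 2.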

How the data were processed

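H4K8ac ChIP-seq of sorted OPCs was analysed in 3 neonatal and 3 adult libraries. The submitters' processing notes name Trim Galore, Bowtie2 2.4.5, SAMtools, deepTools, MACS2, DiffBind, ChIPseeker and GRCm38, with no role or order. Each library has its own deposited peak list, which gives per the file headers a score, a fold enrichment, −log10 of the p-value and of the q-value, and the assigned gene; peaks were called per library, and every q-value is under 0.05. A further table of the authors compares the ages site by site, by log2 fold change and p-value, raw and adjusted. Gene positions matched GRCm38.p6 for 14228 of 14232 protein-coding symbols. Coordinates count from 1.

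The covered length per gene was tested in limma 3.58.1 (R 4.3.3; eBayes with trend) on log2 of covered bp plus 500, over 20206 genes with a peak in at least 2 of the 6 lists, with Benjamini-Hochberg adjustment and a call under 0.05. The test was also run on data simulated from these covered lengths, and the outcome is not reported here. Regions are peaks joined where they share at least 1 base. Alternatives were offsets of 100 and 2000 bp, a stricter q-value of 0.005, all genes, the 7353 strongest peaks per library, scaling to equal totals, assignment by position, joining peaks within 1000 bp, the replicate block and each library left out.

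All members are named; of the other Wnt genes, the called gene with the largest and the smallest change per list and those with a site below 0 in the authors' table; and the 3 genes nearest to Tcf7l2. Members and lists were chosen with earlier results of these data known. Input libraries were not analysed here. Sequences are from RefSeq (GRCm38.p6). Promoters of 8 of the 10 members were found there.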

Additional observations from a re-analysis of the deposited data

How the results depend on the processing

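Among the members' log2 changes under other settings, 100 kept their direction and stayed called or not called. Of the others, 21 lost the call, 1 gained it and 8 turned their sign. The 100 include Lef1 and Ctnnb1, which were not called as the lists stood. They also include Daam2 and Rnf43, whose log2 changes could not move when a neonatal library was left out. The count is therefore not used as support. With equal numbers of strongest peaks the members called higher numbered 1 and those without overlap 3, all genes 2130 higher and 299 lower, other Wnt genes 11 higher and 2 lower, and members with a promoter peak in more adult lists 2; the adult minus neonatal differences in peaks per list became -1 for promoters, 0 for introns and 0 for distal peaks, and the log2 changes of Tcf7l2 and Apcdd1 became -0.83 and -0.073. Scaled to equal totals, 2 members were called higher and 2 lower, and of all genes 4888 were higher and 2510 lower. The log2 changes turned to -0.64 for Tcf7l2, -0.077 for Tcf7l1 and -0.84 for Apc, without a call. Ctnnb1 at -1.67 and Axin2 at -1.28 were called lower. By position 37 genes were lower and Lef1 was at 0.64. Joining peaks within 1000 bp gave differences of 8 promoter and 14.7 intronic peaks. Counting only introns of the assigned gene, an alternative chosen after seeing the data, gave 21.3. By the exact permutation test 0 members could be called at 3 against 3. Leaving out each library in turn gave 4 to 8 members called higher. Of all genes, 9450 to 16117 were called higher and 40 to 122 lower in those fits. For the strongest peaks, the members without overlap and those with a promoter peak in more adult lists have no count over all genes beside them. Those 2 counts are not read as a result about the members. Some of the settings keep fewer peaks or samples, and the causes of the differences between settings were not tested.

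Same-numbered libraries did not deviate together (r = -0.06, -0.02 and 0.06 over genes), so the numbers were not used to pair samples. With the replicate block the members called higher stayed at 7. Of all genes 13013 were called higher and 107 lower, against 13598 and 64 without it. Read depth was not in the files used, so what each list could detect is unknown.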
